A study of Drosophila melanogaster with 9 samples.

Results

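The nuclear lamina and nucleoporin genes comprised 10 genes, chosen by name from their known products, out of 15168 genes in the deposited table. Earlier results of these data were known when they were chosen. They were 5 lamina genes, Lam (CG6944), LamC (CG10119), LBR (CG17952), Ote (CG5581) and bocks (CG9424), and 5 nucleoporin genes, Nup75 (CG5733), Nup107 (CG6743), Nup98-96 (CG10198), Nup153 (CG4453) and Mtor (CG8274). All 10 were found in the table, and their values came from total RNA sequencing of S2 cells, a Drosophila melanogaster line of embryonic origin. The study asked how the expression of heterochromatic genes depends on HP1a, a protein that binds methylated histone H3, and on Su(var)3-9, an enzyme that methylates it. Cells received 1 µg of double-stranded RNA (dsRNA) and were harvested 3 days later, and each group had 3 libraries: HP1a RNAi (labelled HP1 alpha), Su(var)3-9 RNAi, and a control with dsRNA against GFP, a gene that flies do not have. By these labels all groups carried a transfected dsRNA, and no library labelled as untransfected was analysed here. The titles name the control libraries only as S2, so their treatment rests on the RNAi label and the study's methods. The study's methods state RNAi in triplicate for RNA sequencing, and neither they nor the labels say whether replicates were separate cultures, so p-values measure only the spread between these libraries.

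The nuclear lamina is a meshwork of lamin filaments under the inner nuclear membrane, to which membrane proteins such as the lamin B receptor and the LEM-domain proteins are bound. Nuclear pores perforate the envelope, and each is built from nucleoporins that form a scaffold, a central channel and a basket on the nuclear side. In flies and mammals heterochromatin often lies at the lamina, whereas several nucleoporins are known to contact active genes.

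Neither targeted gene was reduced in its own RNAi libraries, and both were raised there. The HP1a gene (CG8409) averaged 332 ± 55.6 TPM in HP1a RNAi libraries and 75.0 ± 19.2 TPM in control libraries (SD, n = 3 each; TPM, transcript abundance scaled by length and library total). CG6476 was read here as Su(var)3-9, although that identifier took no gene name in the match to RefSeq. It averaged 368 ± 101 TPM in Su(var)3-9 RNAi libraries and 32.4 ± 7.42 TPM in control libraries (SD, n = 3 each). Whether it also holds RNA of another gene was not tested. The study assessed depletion on the proteins by immunoblot and reported lower levels of both, a result that was not analysed here. Whether transfected dsRNA contributed to the RNA values was not tested, and every direction below describes libraries by their label. Su(var)3-9 RNAi replicate 3 stood apart. Its correlations of log2 values with the other libraries were 0.751 to 0.811 over 8 pairs, against 0.928 to 0.990 over the other 28 pairs. It held the highest value of the 9 libraries for 6 of the 10 genes, and Su(var)3-9 RNAi replicate 1 held the lowest for 8. Protein-coding genes took 10.1 to 11% of the TPM in HP1a RNAi libraries, 9.54 to 14.1% in Su(var)3-9 RNAi libraries and 10.7 to 15.1% in control libraries, so the TPM of a coding gene also moved with the remainder. Of 9 hemocyte-like markers, 7 averaged at least 1 TPM, and Hml and NimC1 were below it. The summed level of all 9 was 38.7 to 42.9 TPM in HP1a RNAi, 30.7 to 60.1 TPM in Su(var)3-9 RNAi and 38.1 to 50.5 TPM in control libraries. Of the male-cell markers, msl-2 and roX2 averaged over 1 TPM and roX1 under it, and their sum was 63.2 to 76.8 TPM in HP1a RNAi, 47.9 to 86.2 TPM in Su(var)3-9 RNAi and 21.9 to 80.4 TPM in control libraries. Germline, neuron and muscle markers each averaged under 1 TPM. Their sums were low but not even between groups. The 3 germline markers summed to 0.73 to 1.23 TPM in HP1a RNAi, 0.88 to 1.79 TPM in Su(var)3-9 RNAi and 1.67 to 2.3 TPM in control libraries. The 3 neuron markers summed to 0.35 to 0.44 TPM in HP1a RNAi, 0.3 to 0.93 TPM in Su(var)3-9 RNAi and 0.74 to 1.39 TPM in control libraries, so for both lists the HP1a RNAi libraries lay below the control libraries, and their part in the results was not tested. The 3 muscle markers summed to at most 0.13 TPM in any library. In bulk RNA, fewer cells of a type and less RNA per cell cannot be told apart.

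All 10 genes were detected in every library. In HP1a RNAi libraries their means ran between 18.1 TPM for Ote and 1.11 TPM for LamC, with LamC the lowest in all 3 groups. Ranges of Ote and Lam (13.3 TPM) did not overlap there, nor did those of Nup153 (3.68 TPM) and LamC. In Su(var)3-9 RNAi libraries, neighbours in the order of levels overlapped throughout, except that Nup153 (3.76 TPM) lay above LamC (1.31 TPM). In control libraries Ote (22.8 TPM), Nup107 (16.8 TPM) and Lam (15.0 TPM) had the highest means, followed by Nup75 (11 TPM), LBR (10.6 TPM), bocks (10.1 TPM), Nup98-96 (9.22 TPM) and Mtor (7.92 TPM). These did not form separate groups, since Nup107 reached down to 11.82 TPM and bocks spanned 7.93 to 13.50 TPM, a range that met those of Lam above and Mtor below. Nup153 (4.37 TPM) and LamC (2.94 TPM) overlapped with each other and lay below the other 8 genes in every control library. TPM are scaled by transcript length, so these levels can be compared between genes.

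**Figure D1:**
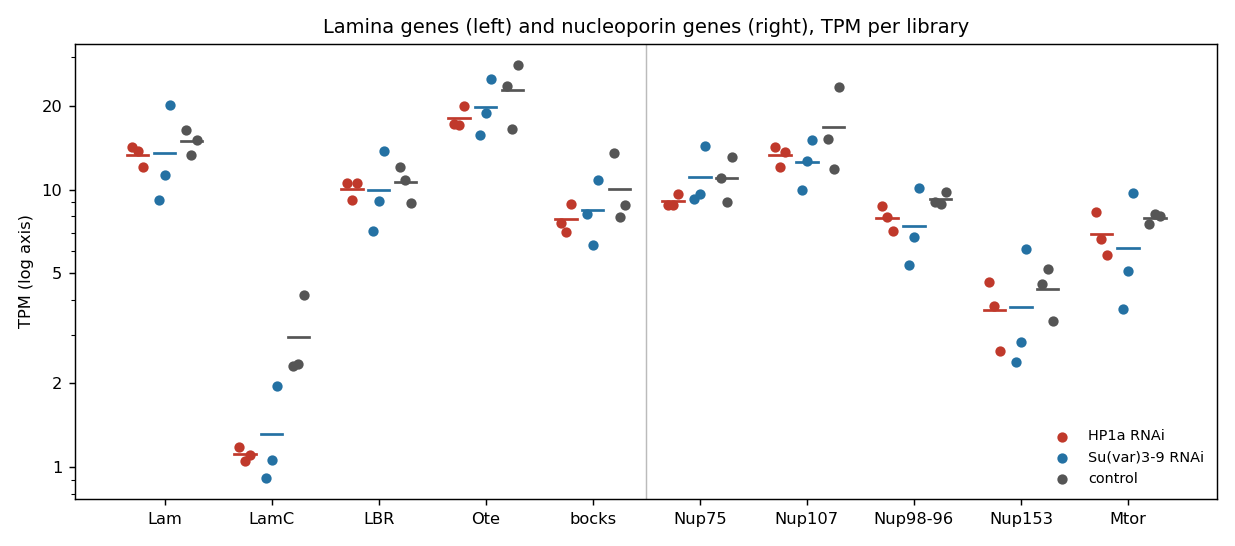
TPM of the 10 genes in each of the 9 libraries on a log axis, with HP1a RNAi, Su(var)3-9 RNAi and control libraries side by side (points: replicates 1 to 3; bars: means). LamC is the gene whose 6 RNAi libraries all lie below its 3 control libraries.

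LamC, the A-type lamin of flies, was lower in HP1a RNAi libraries than in control libraries. Its level was 1.18, 1.05 and 1.10 TPM in HP1a RNAi replicates 1 to 3, against 2.31, 2.34 and 4.17 TPM in control replicates 1 to 3. The groups did not overlap, and control replicate 3 was far above the other controls. In limma's moderated test on log2(TPM + 1), LamC changed by -0.87 in log2 fold (SE 0.18), with an adjusted p of 0.0198 (Benjamini-Hochberg over the 6573 genes whose mean reached 1 TPM). The pseudocount of 1 makes this smaller than the change in TPM of so low a gene, whose means were 1.11 ± 0.0656 TPM in HP1a RNAi and 2.94 ± 1.07 TPM in control (SD, n = 3 each). Most genes were lower in these libraries, with a median log2 fold change of -0.27 over all tested genes, so changes are given hereafter relative to that median. On that scale LamC was at -0.60 (95% interval -0.99 to -0.21). Of the 6573 tested genes, 156 (2.37%) had a lower log2 fold change. The limma p-values, here and below, test the change before the median is subtracted. Of the 285 genes that passed in this comparison, 271 were lower. LamC stood at 0.91, 1.06 and 1.96 TPM in Su(var)3-9 RNAi replicates 1 to 3, again below all 3 control libraries. It did not pass the test there, with a log2 fold change of -0.765 (95% interval -1.313 to -0.217; limma adjusted p = 0.420). Relative to the median gene the change was -0.54 (95% interval -1.09 to 0.01). Without Su(var)3-9 RNAi replicate 3, the relative value was -0.58 and the adjusted p 0.00473. LamC lies inside ttv, a heparan sulfate polymerase gene on the opposite strand, with 0 shared exon bases in a later annotation. Whether reads were counted by strand is not given in the sources used here. ttv had 2.62, 2.70 and 2.72 TPM in HP1a RNAi libraries, against 4.81, 3.52 and 3.53 TPM in control libraries. Its groups did not overlap either, as for 31.5% of all tested genes in that direction. However, ttv did not pass the test (relative log2 fold change -0.15, limma adjusted p = 0.141), and its part in the LamC values was not tested.

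The call for LamC in HP1a RNAi libraries depended on the setting. After median-ratio size factors, which scale each library by its typical gene, LamC was 1.28, 1.19 and 1.16 TPM in HP1a RNAi libraries, against 1.80, 2.47 and 3.27 TPM in control libraries. The groups stayed apart on that scale, but the limma adjusted p was 0.137. Over 15 alternative settings the adjusted p ran between 4.22e-04 and 0.163, and the call held in 7. The relative log2 fold change was negative in all 15, from -0.96 to -0.44. The call was lost without HP1a RNAi replicate 1 (adjusted p = 0.05001), without HP1a RNAi replicate 3 (0.0644) and without control replicate 1 (0.0530). For Su(var)3-9 RNAi, LamC passed in 2 of 16 alternatives.

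**Figure D2:**
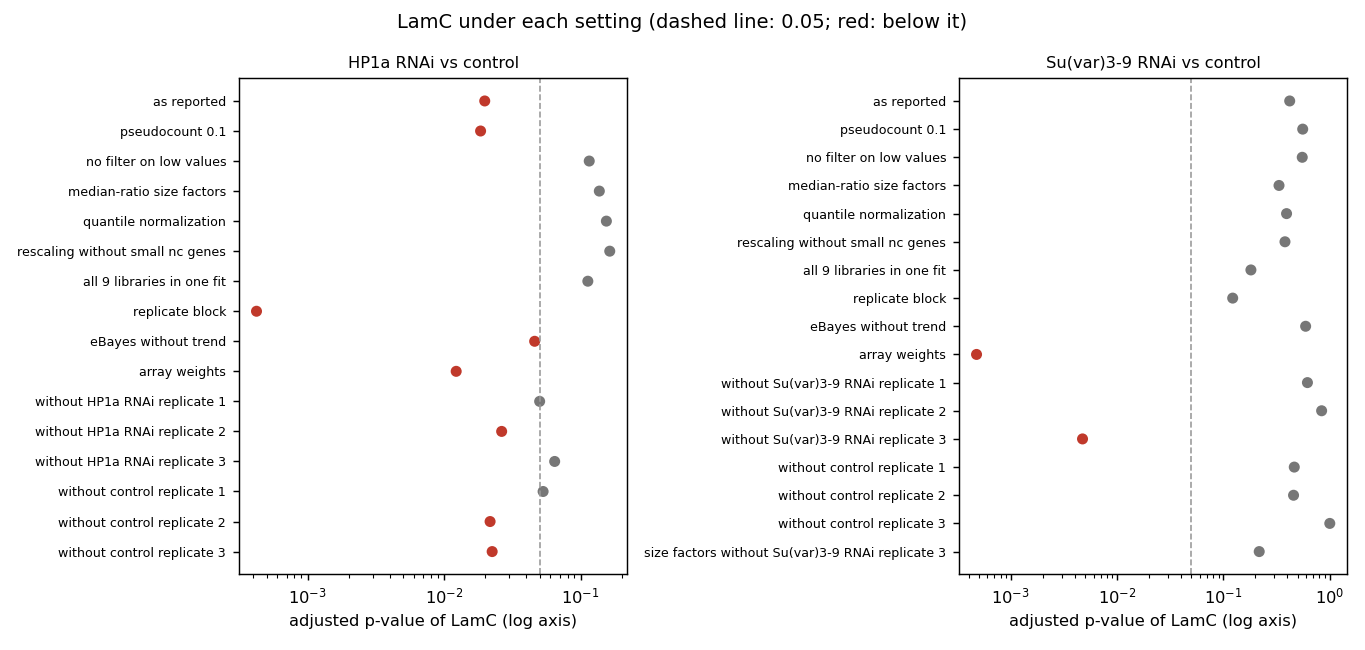
Adjusted p-value of LamC in limma's test on a log axis, for each setting, in HP1a RNAi against control (left) and Su(var)3-9 RNAi against control (right), with 0.05 dashed and values below it in red. For HP1a RNAi the values lie on both sides of 0.05, and for Su(var)3-9 RNAi 2 of 16 alternatives fall below it.

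Lam, the B-type lamin, did not follow LamC. It was measured at 14.23, 13.73 and 12.07 TPM in HP1a RNAi libraries, 9.20, 11.31 and 20.26 TPM in Su(var)3-9 RNAi libraries and 16.39, 13.35 and 15.11 TPM in control libraries. The groups overlapped, and replicate 3 set the upper end in Su(var)3-9 RNAi. The relative log2 fold change was 0.12 in HP1a RNAi (95% interval -0.28 to 0.52) and 0.03 in Su(var)3-9 RNAi (-0.63 to 0.69). Because both lamins were read in the same library, their ratio does not depend on how that library was scaled. LamC per Lam was 0.0829, 0.0765 and 0.0911 in HP1a RNAi libraries and 0.0989, 0.0937 and 0.0967 in Su(var)3-9 RNAi libraries, against 0.141, 0.175 and 0.276 in control libraries. Every ratio under either dsRNA lay below every control ratio, including that of Su(var)3-9 RNAi replicate 3. The ratio in HP1a RNAi was 0.439 of that in control, and in Su(var)3-9 RNAi 0.509 of it (two-sided exact permutation test, p = 0.10 for each, the smallest that 3 against 3 libraries allow). As background, 16.5% of the other 6572 genes had a ratio to Lam below all control libraries in HP1a RNAi, and 11% in Su(var)3-9 RNAi. Set against Su(var)3-9 RNAi, the HP1a RNAi log2 ratio differed by -0.21 (exact permutation p = 0.10).

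**Figure D3:**
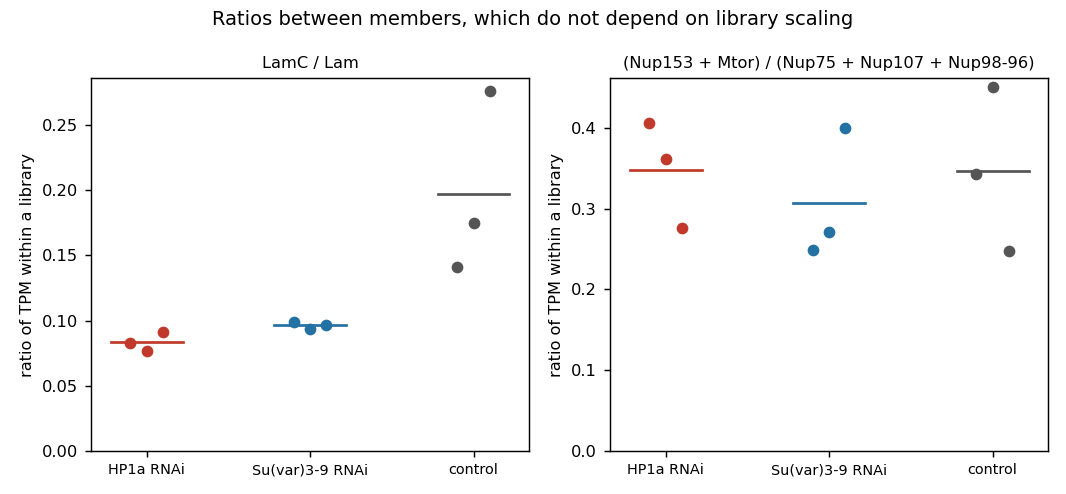
Within-library ratios of TPM, LamC to Lam (left) and the 2 basket genes to the 3 Y-complex genes (right), for HP1a RNAi, Su(var)3-9 RNAi and control libraries (points: libraries; bars: means; axes start at 0). The LamC to Lam ratio is 0.0765 to 0.0989 in the 6 libraries of both RNAi groups and 0.141 to 0.276 in the control libraries, while the basket ratio overlaps between groups.

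LBR, Ote and bocks encode lamina partners in the inner nuclear membrane, and none of them passed the test. LBR, the lamin B receptor, had 10.56, 9.17 and 10.53 TPM in HP1a RNAi libraries, 7.07, 9.13 and 13.79 TPM in Su(var)3-9 RNAi libraries and 12.06, 10.87 and 8.96 TPM in control libraries. Its relative log2 fold change of 0.21 in HP1a RNAi was the highest of the 10 genes, with a 95% interval of -0.19 to 0.60. Ote, the LEM-domain protein otefin that fly germline stem cells need, had 17.17, 17.07 and 20.09 TPM in HP1a RNAi libraries, 15.75, 18.92 and 25.08 TPM in Su(var)3-9 RNAi libraries and 23.57, 16.57 and 28.21 TPM in control libraries. Control replicate 2 lay below all HP1a RNAi libraries, and without it Ote passed the test as lower in HP1a RNAi (limma adjusted p = 0.0356). With all libraries its relative log2 fold change was -0.02 (95% interval -0.51 to 0.47), a sign that turned under other scalings. The third, bocks, another LEM-domain gene, had 7.58, 7.02 and 8.90 TPM in HP1a RNAi libraries, 8.14, 6.31 and 10.84 TPM in Su(var)3-9 RNAi libraries and 13.50, 7.93 and 8.81 TPM in control libraries. Its high value was control replicate 1, and its relative log2 fold change was -0.03 in HP1a RNAi (95% interval -0.48 to 0.42). In a later annotation bocks shares 114 exon bases with P58IPK on the opposite strand, a chaperone gene that averaged 11.2 ± 1.55 TPM in HP1a RNAi and 19.4 ± 3.44 TPM in control (SD, n = 3 each; limma adjusted p = 0.0642).

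Nup75, Nup107 and Nup98-96 contribute to the Y-shaped scaffold complex of the pore. Nup98-96 encodes a precursor that is cleaved into Nup98, a mobile nucleoporin, and Nup96, the scaffold part. Nup75 had 8.82, 8.79 and 9.67 TPM in HP1a RNAi libraries, 9.25, 9.61 and 14.33 TPM in Su(var)3-9 RNAi libraries and 11, 8.99 and 13.09 TPM in control libraries. All groups overlapped on this scale. After size factors Nup75 was 11.8, 10.9 and 11.4 TPM in Su(var)3-9 RNAi libraries, against 8.58, 9.48 and 10.3 TPM in control libraries. These groups no longer overlapped, as for 8.03% of all tested genes in that direction, and Nup75 did not pass the test (limma adjusted p = 0.478). Nup107 had 14.24, 12.02 and 13.65 TPM in HP1a RNAi libraries, 9.95, 12.71 and 15.06 TPM in Su(var)3-9 RNAi libraries and 15.22, 11.82 and 23.34 TPM in control libraries. Control replicate 3 alone was above 16 TPM. Nup98-96 had 8.75, 7.95 and 7.08 TPM in HP1a RNAi libraries, 5.33, 6.72 and 10.11 TPM in Su(var)3-9 RNAi libraries and 9.04, 8.85 and 9.77 TPM in control libraries. Its HP1a RNAi libraries lay just below the controls, and they overlapped with them after size factors. Relative log2 fold changes in HP1a RNAi were 0.03 for Nup75, 0.00 for Nup107 and 0.07 for Nup98-96, with 95% intervals that included 0.

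Nup153 and Mtor form the nuclear basket, Mtor being the fly counterpart of Tpr, the filament protein of the basket. Nup153 had 4.64, 3.79 and 2.61 TPM in HP1a RNAi libraries, 2.39, 2.81 and 6.08 TPM in Su(var)3-9 RNAi libraries and 4.56, 5.18 and 3.37 TPM in control libraries. Mtor had 8.27, 6.61 and 5.79 TPM in HP1a RNAi libraries, 3.72, 5.07 and 9.72 TPM in Su(var)3-9 RNAi libraries and 7.53, 8.19 and 8.03 TPM in control libraries. For both genes Su(var)3-9 RNAi replicates 1 and 2 were below all control libraries and replicate 3 above them. Relative log2 fold changes were 0.06 for Nup153 and 0.08 for Mtor in HP1a RNAi, and -0.01 and -0.17 for the same genes in Su(var)3-9 RNAi, none past the test. The summed basket genes divided by the summed Y-complex genes gave 0.406, 0.362 and 0.276 in HP1a RNAi libraries, 0.249, 0.271 and 0.400 in Su(var)3-9 RNAi libraries and 0.343, 0.451 and 0.247 in control libraries. The ratio overlapped in every comparison (exact permutation p = 0.90 for HP1a RNAi against control, 0.70 for Su(var)3-9 RNAi against control, 0.40 for HP1a RNAi against Su(var)3-9 RNAi).

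**Figure D4:**
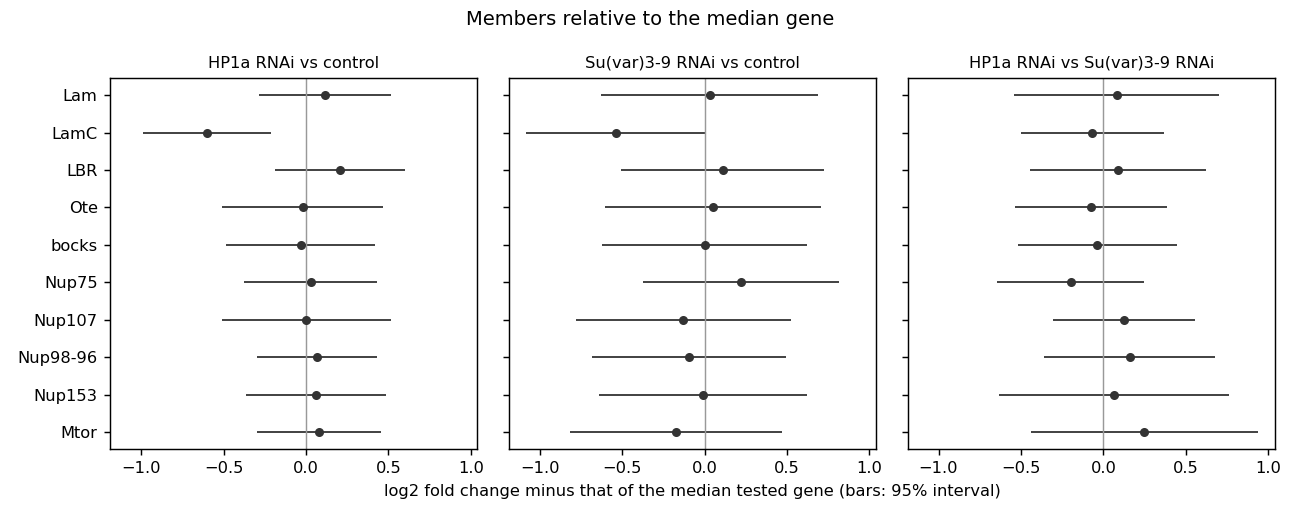
Log2 fold change of each gene minus that of the median tested gene, with its 95% interval, in the 3 comparisons. LamC in HP1a RNAi against control, at -0.60, is the value whose interval excludes 0.

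Counted together, 1 of the 10 genes (LamC, lower) passed the test in HP1a RNAi against control, where 4.34% of all tested genes passed. LamC was not a blind choice, since the study already names it among downregulated genes in these data. Of tested genes with means of 1 to 5 TPM, the range in which LamC lies, 5.37% were called lower. LamC and Nup98-96 lay below all control libraries, 2 of 10 genes, whereas 31.5% of all tested genes did. After size factors LamC alone did, beside 10.8% of all tested genes. In Su(var)3-9 RNAi against control, 0 of 10 genes passed in limma's test, 1 (LamC) had an unadjusted p under 0.05, and 0.167% of all tested genes passed. LamC was the 1 gene of the 10 below all control libraries, beside 7.91% of all tested genes, and the same held after size factors beside 8.46%. In HP1a RNAi against Su(var)3-9 RNAi, 0 of 10 passed in limma's test, 0 had an unadjusted p under 0.05, and 0.0609% of all tested genes passed. Relative log2 fold changes there ran between -0.20 for Nup75 and 0.25 for Mtor, and LamC was at -0.07 (95% interval -0.50 to 0.37). Both comparisons with the control share its 3 libraries. The median relative log2 fold change of the 10 genes was 0.04 in HP1a RNAi and -0.01 in Su(var)3-9 RNAi, against 0 by construction for all tested genes.

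The 10 genes have 15 transcripts in the deposited table, 3 each for LBR and Nup153, 2 for bocks and 1 for each other gene. No member transcript passed limma's test in any comparison, where 0.325% of 7704 tested transcripts passed in HP1a RNAi against control, 0.0779% in Su(var)3-9 RNAi against control and 0.0649% in HP1a RNAi against Su(var)3-9 RNAi. The single LamC transcript CG10119-RA has the same TPM as its gene but an adjusted p of 0.123 in HP1a RNAi over the transcripts. One transcript was singled out after its values were seen. CG4453-RA of Nup153 had 0.93, 0.26 and 0.74 TPM in HP1a RNAi libraries, 0.07, 0.01 and 0.00 TPM in Su(var)3-9 RNAi libraries and 1.70, 1.13 and 1.34 TPM in control libraries. Both dsRNA groups lay below the controls, and Su(var)3-9 RNAi, replicate 3 included, lay below HP1a RNAi. The share of all transcripts separated in this way is not given here, so the separation has no background. It carried 2.93, 0.356 and 0% of the Nup153 TPM in Su(var)3-9 RNAi replicates 1 to 3, against 37.4, 21.8 and 39.9% in control replicates 1 to 3. The shares of CG4453-RB and CG4453-RC were correspondingly higher in Su(var)3-9 RNAi, averaging 55.3 ± 4.71% and 43.6 ± 3.47% there and 36.9 ± 8.03% and 30.1 ± 4.46% in control (SD, n = 3 each). For CG4453-RA the share differed by -31.9 percentage points in Su(var)3-9 RNAi (exact permutation p = 0.10, the smallest possible) and by -14.6 points in HP1a RNAi (exact permutation p = 0.20), among 8 transcripts compared. Its mean over the 9 libraries was under 1 TPM, which kept it out of the test. With no filter its limma adjusted p was 0.132 in Su(var)3-9 RNAi and 0.344 in HP1a RNAi. The 3 transcripts have near-equal lengths of 7761, 7899 and 7845 bases, and the division of shared reads between them is an estimate. LBR and bocks each had 1 dominant transcript, CG17952-RA with a mean share of 93.1% in HP1a RNAi, 96.2% in Su(var)3-9 RNAi and 87.0% in control, and CG9424-RB with 89.5%, 84.9% and 79.3% in the same groups. CG17952-RA carried 95.9, 98.5 and 94.2% in Su(var)3-9 RNAi replicates 1 to 3, above the 76.7, 91.6 and 92.6% in control replicates 1 to 3. Its exact permutation p was 0.10, as were those of CG4453-RB and CG4453-RC in that comparison. How often the shares of transcripts of other genes separated is not given here, so these separations have no background either.

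**Figure D5:**
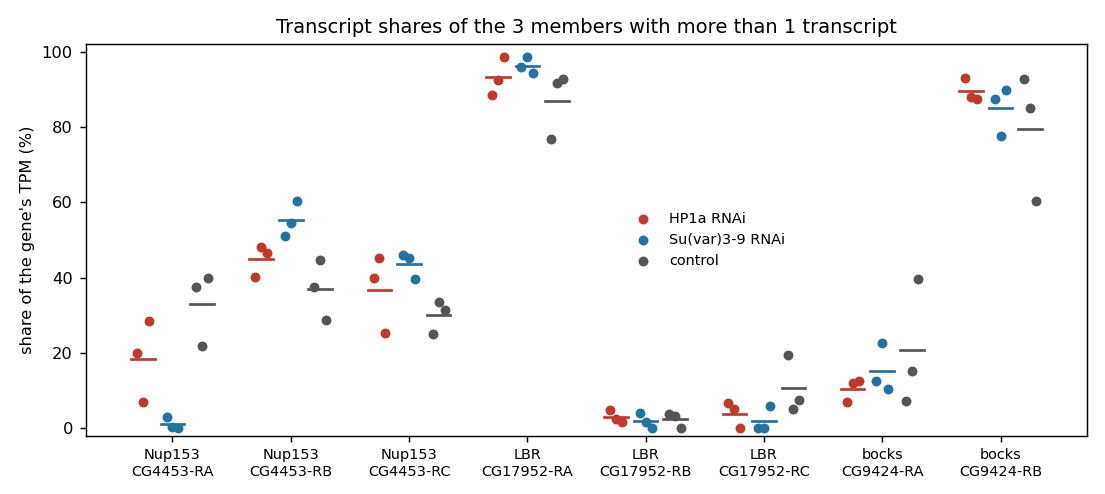
Share of each gene's TPM carried by each transcript of Nup153, LBR and bocks in HP1a RNAi, Su(var)3-9 RNAi and control libraries (points: libraries; bars: means). CG4453-RA of Nup153 carries 0 to 2.93% in Su(var)3-9 RNAi libraries and 21.8 to 39.9% in control libraries.

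Other genes of the envelope, the pore and nuclear transport were read against the same background, 4.34% of all tested genes called in HP1a RNAi and 0.167% in Su(var)3-9 RNAi, at which lists of this size hold few or no calls. Of 25 other nucleoporins, all tested, 0 passed in limma's test in HP1a RNAi (2 with an unadjusted p under 0.05) and 0 in Su(var)3-9 RNAi (0 unadjusted), with median relative log2 fold changes of 0.06 and 0.01. Nup44A, the fly Seh1 and another Y-complex subunit, had the smallest p, with 5.0, 5.60 and 5.65 TPM in HP1a RNAi libraries, against 10.18, 7.12 and 9.41 TPM in control libraries. Its groups did not overlap, as for 7 of the 25 and for 31.5% of all tested genes in that direction. The relative log2 fold change of Nup44A was -0.35 (limma adjusted p = 0.0735). Nup54, a central channel subunit, followed (limma adjusted p = 0.167). The count of other nucleoporins called in HP1a RNAi was 7 without control replicate 2. The median log2 fold change over all tested genes was -0.38 in that setting. The share of all tested genes called there is not given here, so the count of 7 has no background. Of 13 other lamina and envelope genes, 8 were tested and 1, koi, passed as lower in HP1a RNAi. koi encodes a SUN-domain protein of the inner nuclear membrane that links the nucleus to the cytoskeleton. It had 2.44, 1.80 and 1.73 TPM in HP1a RNAi libraries and 1.97, 2.04 and 2.47 TPM in Su(var)3-9 RNAi libraries, against 3.74, 3.71 and 3.63 TPM in control libraries. The HP1a RNAi libraries lay below the controls, as for 31.5% of all tested genes, and so did the Su(var)3-9 RNAi libraries, as for 7.91%. The controls were close to each other. For koi the relative log2 fold change was -0.39 in HP1a RNAi (limma adjusted p = 0.0298, and 0.272 after size factors) and -0.35 in Su(var)3-9 RNAi (adjusted p = 0.543). Of 17 nuclear transport genes, all tested, 0 passed in limma's test in HP1a RNAi (2 unadjusted) and 0 in Su(var)3-9 RNAi (1 unadjusted). The smallest p belonged to Tnpo, the transportin import receptor, with 3.92, 4.78 and 3.46 TPM in HP1a RNAi libraries, against 6.66, 6.26 and 5.52 TPM in control libraries (limma adjusted p = 0.105). The messenger RNA export factor gene sbr followed (limma adjusted p = 0.195).

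The study names LamC among downregulated genes and Nup75 among upregulated genes after HP1a or Su(var)3-9 RNAi. Here the log2 fold change of Nup75, before the median is subtracted, was -0.240 in HP1a RNAi and -0.006 in Su(var)3-9 RNAi. It passed the test in neither. Profiles over the 9 libraries were also compared for LamC and Nup75. The measure was the root mean square difference of log2(TPM + 1) after each gene was centred on its own mean. Among 6572 other tested genes, those most like LamC were CG9674 (0.078), AOX1 (0.088) and CG6126 (0.088), against a deviation of 0.454 for LamC around its own mean. Those most like Nup75 were Snx6 (0.047), Vps51 (0.052) and Dgkepsilon (0.055), against 0.224 for Nup75 itself. These are descriptions over 9 libraries that share their scaling.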

How the data were processed

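Total RNA was sequenced from 9 S2 cell libraries, 3 per group. The submitters' processing notes name bcl2fastq, cutadapt, STAR and RSEM and the build dm3. The deposited TPM are the authors' RSEM estimates per gene and per transcript, scaled to the same total in every library. TPM keep no read depth, and the read totals that the study lists per library were not used here. Tables of the authors' own fold changes and p-values were not used. Of 15168 identifiers, 13783 matched RefSeq by locus tag and 749 by synonym. Overlapping genes came from a separate later annotation, not from RefSeq, and no coordinates are given.

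Genes or transcripts averaging 1 TPM or more across the 9 libraries were tested on log2(TPM + 1) with limma 3.58.1 (R 4.3.3; empirical Bayes with trend), each comparison on its own 6 libraries, with Benjamini-Hochberg adjustment and a threshold of 0.05. Ratios and shares were tested by two-sided exact permutation over libraries. The fit was tested on simulated data. Named genes were all members, list genes past the threshold or otherwise the 2 smallest p-values, both targets and the closest profiles. Members and lists were chosen with earlier results of these data known.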

Additional observations from a re-analysis of the deposited data

How the results depend on the processing

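TPM from 3 libraries a group limit these results, and without read counts per gene the counting error of genes near 1 TPM, such as LamC, cannot be given. Alternatives changed the pseudocount (0.1), the filter (none, or a mean of 5 TPM or more), the scaling (size factors, quantile normalization, or rescaling with small noncoding genes removed) and the fit (9 libraries together, replicate block, no variance trend, array weights), and left out each library. Size factors without Su(var)3-9 RNAi replicate 3 were added after seeing the data. Array weights did not converge in 4 of 6 fits. The cause of each change below was not tested.

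In HP1a RNAi against control, 1 member gene was called. The count was 0 with no filter, with at least 5 TPM (LamC then untested), size factors, quantile normalization, rescaling and all 9 libraries, and 0 to 2 when a library was left out (2, LamC and Ote, without control replicate 2). The count of other envelope genes was 1, and 0 in those same 6 settings and without a trend, 2 with array weights, and 0 to 2 with a library left out. Other nucleoporins called numbered 1 (Nup44A) under the replicate block, 3 with array weights and 0 to 7 with a library left out. Member transcripts called numbered 0 to 1 with a library left out (CG10119-RA without control replicate 2). In Su(var)3-9 RNAi against control, array weights called 6 member genes, 2 member transcripts, 12 other nucleoporins and 5 envelope genes, and leaving out a library gave 0 to 1 member genes (LamC without Su(var)3-9 RNAi replicate 3). In HP1a RNAi against Su(var)3-9 RNAi, array weights called 5 member genes and 3 transcripts. The share of all tested genes or transcripts called is given here only for the settings of the report. Counts under the alternatives therefore have no background beside them. The LamC to Lam ratio kept its direction in every alternative run. The log2 basket to Y-complex ratio, 0.03 in HP1a RNAi, ran from -0.19 to 0.24 with a library left out, and -0.17 in Su(var)3-9 RNAi ran from -0.39 to 0.045.

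Deviations of same-numbered replicates from their group means correlated at -0.455, -0.313 and 0.083 in HP1a RNAi against control. The values were -0.192, -0.005 and 0.116 in Su(var)3-9 RNAi against control, and 0.094, 0.122 and -0.108 in HP1a RNAi against Su(var)3-9 RNAi. Deviations from a mean of 3 libraries offset each other, so these values cannot decide whether the numbers pair the libraries. With the replicate block the member counts stayed 1, 0 and 0, and the limma adjusted p of LamC in HP1a RNAi against control was 4.22e-04.

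Relative log2 fold changes near 0 turned sign. In HP1a RNAi, Ote was 0.019 with pseudocount 0.1, 0.017 with at least 5 TPM, 0.026 with size factors, 0.050 with quantile normalization and 0.034 with rescaling, and bocks was 0.006 with at least 5 TPM and 0.001 with rescaling. For Su(var)3-9 RNAi, bocks was 0.025 with pseudocount 0.1, 0.023 with at least 5 TPM, 0.026 with size factors, 0.026 with rescaling and 0.01 with the added size factors, Lam was -0.043 with array weights and -0.076 with the added size factors, and Nup107 was 0.017 with array weights. In HP1a RNAi against Su(var)3-9 RNAi, bocks was 0.205 with array weights and LamC 0.02 with the added size factors. With a library left out in HP1a RNAi, Ote ran from -0.11 to 0.088, bocks from -0.16 to 0.12, Nup75 from -0.022 to 0.094, Nup107 from -0.096 to 0.20, Nup153 from -0.14 to 0.28 and Mtor from -0.037 to 0.22. For Su(var)3-9 RNAi, Lam ran from -0.13 to 0.15, LBR from -0.052 to 0.25, Ote from -0.036 to 0.16, bocks from -0.13 to 0.16, Nup107 from -0.22 to 0.068 and Nup153 from -0.21 to 0.22. In HP1a RNAi against Su(var)3-9 RNAi, Lam ran from -0.024 to 0.24, bocks from -0.16 to 0.072 and Nup153 from -0.076 to 0.26. With the settings of the report, none of these genes passed the test in a comparison where its sign turned. Of the genes listed for Su(var)3-9 RNAi, array weights called Lam (limma adjusted p = 0.0186), bocks (0.00267) and Nup153 (0.0121). Of those listed for HP1a RNAi against Su(var)3-9 RNAi, array weights called Lam (0.0304), bocks (0.0314) and Nup153 (0.0486). Ote passed in HP1a RNAi against control without control replicate 2 (0.0356).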
